A study of Pyrus x bretschneideri with 2 samples.

Results

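The genes described here are 5 pear genes whose best database hits are named after the major fruit allergens of pear and its relatives, out of 45022 genes in the deposited expression table. They were chosen by identifier, and so selected on the authors' calls, from the 381 genes that the authors' deposited table lists as different between the libraries. The best hit of Pbr012008 is major allergen Pyr c 1, those of Pbr040353, Pbr012011 and Pbr042268 are major allergen Pru ar 1-like, and that of Pbr012004 is major allergen Pru av 1-like. All 5 carry the Pfam description of the Bet v I family of pathogenesis-related proteins in that table, so the label and the annotation go together. Because being listed as different was a condition of the choice, every ratio between the libraries below describes the 5 genes, with no test.

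The RNA came from tissue around wounds in fruit of Pyrus x bretschneideri. The yeast library came from fruit treated with Meyerozyma guilliermondii, a yeast tested for the biocontrol of postharvest decay, and the water library from fruit treated with sterile distilled water as the control. All fruit were kept for 3 days at 20 °C, so both groups carry the wound and the storage. Each group had 1 library, so no value has a replicate, and the labels give neither the cultivar nor the number of fruit behind a library.

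Bet v I proteins, also called PR10 (pathogenesis-related family 10) proteins, are small intracellular proteins folded around a cavity that can hold plant hormones, flavonoids and other small hydrophobic compounds. Plants usually carry many near-identical PR10 genes, often side by side, and many of these genes respond to wounding and to microbes. The family is named after Bet v 1 of birch pollen. Its fruit members, Pyr c 1 in pear, Pru av 1 in cherry and Pru ar 1 in apricot, are bound by antibodies raised against the pollen protein, which is how birch pollen allergy can extend to fresh fruit.

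Levels are in FPKM, fragments per kilobase of gene and of library size, a unit corrected for gene length, so genes can be compared with each other. FPKM values summed to 748043 in the yeast library and 692635 in the water library. In the yeast library 21495 genes stood at 1 FPKM or more, and in the water library 21484. Read totals were not used here, so no counting interval is given. Ratios are log2((yeast + 1)/(water + 1)), with a pseudocount of 1 FPKM that shrinks the ratios of low genes, and a 2-fold difference on this scale is used as a size rule in place of a test. In bulk tissue, fewer cells of a type and less RNA per cell cannot be told apart. Only genes in the authors' table carry a description, so markers of fruit flesh or skin could not be looked up by name.

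The 5 genes split by direction and differed widely in level. Pbr012008, the Pyr c 1 gene, and the Pru ar 1-like gene Pbr040353 were higher in the yeast library, and the Pru ar 1-like genes Pbr012011 and Pbr042268 were lower. The authors' deposited table lists 3 of the 5 genes as higher and 2 as lower, where 0.318% of all genes of the expression table are listed as higher and 0.529% as lower. Since these lists chose the genes, the shares are given only as background. On the size rule, 4 of the 5 genes reached 1 FPKM in one library or the other, of which 2 were higher and 2 lower by 2-fold or more. Among the 22603 genes at that level, 3.32% were higher with the yeast by 2-fold or more and 3.00% were lower.

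**Figure D1:**
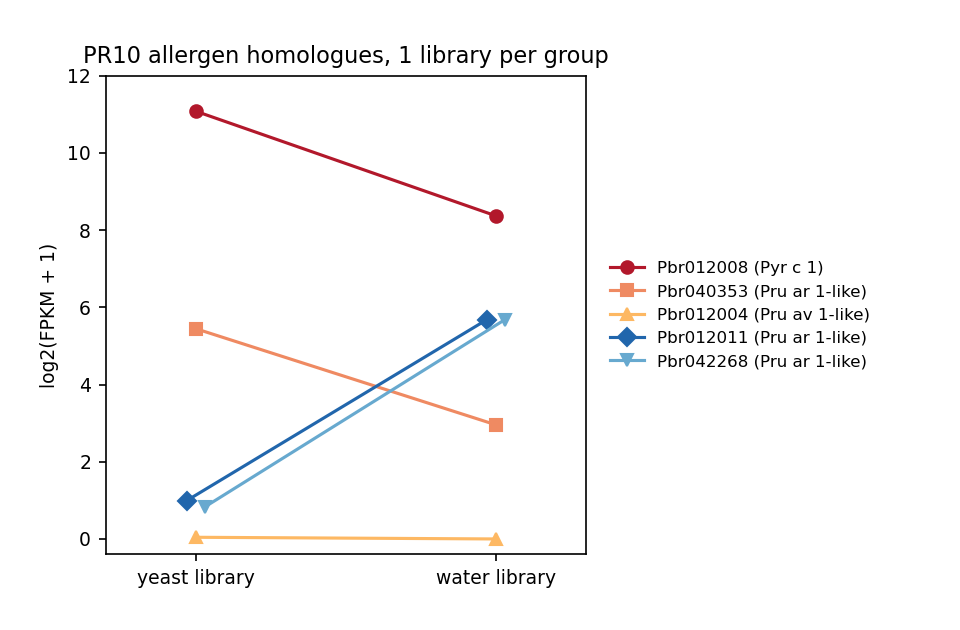
FPKM of the 5 PR10 genes in the yeast library and the water library, on the log2(FPKM + 1) scale, 1 point per library and a line per gene (the points of Pbr012011 and Pbr042268 are shifted sideways to show both). Pbr012008 lies at 2162 FPKM in the yeast library and 330.0 FPKM in the water library, and the lines of Pbr012011 and Pbr042268 run the opposite way and nearly on top of each other.

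Pbr012008, the abundant Pyr c 1 gene, had 2162 FPKM in the yeast library and 330.0 FPKM in the water library. The yeast library was thus 6.55-fold higher by the plain FPKM ratio, and the log2 ratio with the pseudocount was 2.71. The authors' deposited table gives a log2 fold change of 2.76 with an adjusted p of 0.00674 for the yeast library over the water library, a value that compares these libraries and not the treatments. In that table the smallest log2 fold change of a gene listed as higher is 2.66 and the largest adjusted p is 0.00994, so Pyr c 1 is close to the edge of the list. By size of fold change it is number 133 of the 143 genes listed as higher.

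In abundance Pyr c 1 held a place near the top. It ranked 25 of 45022 genes in the yeast library, within the top 0.0555%, and 229 in the water library, within the top 0.509%. Among the 381 genes of the authors' table it was the most abundant in the yeast library and number 2 in the water library. Its rank neighbours in the yeast library were XLOC_003803 above it, at 2405 FPKM with the yeast and 2541 FPKM with water, and Pbr036405 below it, at 2030 FPKM with the yeast and 2277 FPKM with water. In the water library they were Pbr023935 above it, at 405 FPKM with the yeast and 332 FPKM with water, and Pbr015156 below it, at 436 FPKM with the yeast and 329.7 FPKM with water. These 4 genes carry no description, and their log2 ratios lay between -0.17 and 0.40.

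All 24 genes above Pyr c 1 in the yeast library were also above its level in the water library. Their log2 ratios ran from -0.74 to 2.51, with a median of 0.22, and 1 of the 24 was higher with the yeast by 2-fold or more. With the yeast, 52 genes reached 1000 FPKM, and 3 of these, Pbr040349, Pbr012008 and Pbr042265, exceeded their level with water by more than 2-fold. The log2 ratios of the 3 were 2.73, 2.71 and 2.51 in that order.

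**Figure D2:**
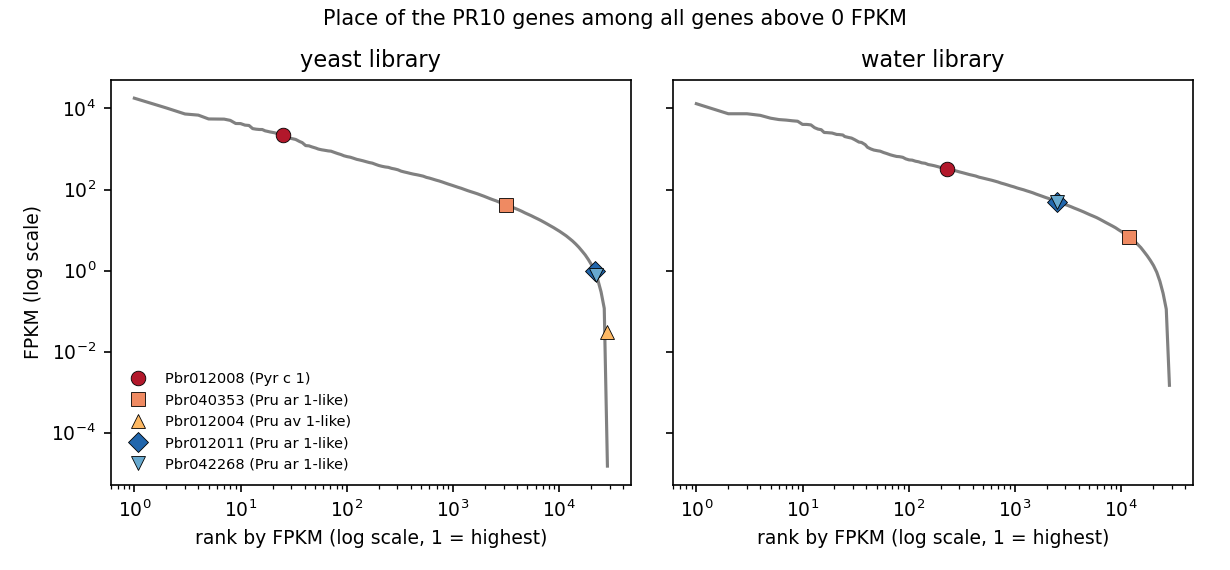
FPKM against rank among all genes above 0 FPKM, both on log scales, in the yeast library (left) and the water library (right), with the PR10 genes marked on the grey curve of all genes. Pyr c 1 stands at rank 25 with the yeast and 229 with water, Pbr040353 at rank 3122 and 11943, and the Pbr012011 and Pbr042268 markers at ranks beyond 21532 with the yeast and near 2516 with water; Pbr012004, at 0 in the water library, is marked only on the left.

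Pbr040353, a Pru ar 1-like gene, followed Pyr c 1 at a far lower level. It had 42.6 FPKM in the yeast library and 6.77 FPKM in the water library, a 6.29-fold difference and a log2 ratio of 2.49. The authors' deposited table gives a log2 fold change of 2.75 with an adjusted p of 0.00842. Its rank was 3122 in the yeast library and 11943 in the water library. Pyr c 1 was 50.7 times as abundant as Pbr040353 with the yeast and 48.7 times as abundant with water, so the proportion between these genes was nearly the same in both libraries.

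The Pru ar 1-like genes Pbr012011 and Pbr042268 went the other way. Pbr012011 had 0.988 FPKM in the yeast library and 50.1 FPKM in the water library, a log2 ratio of -4.68. Pbr042268 had 0.772 FPKM in the yeast library and 50.1 FPKM in the water library, a log2 ratio of -4.85. Both were thus below 1 FPKM with the yeast and among the upper 5.59% of genes with water. By the plain FPKM ratio the water library was 50.7-fold higher for Pbr012011 and 64.9-fold higher for Pbr042268. Counted from the lowest log2 ratio of the 22603 genes, Pbr042268 was number 4 and Pbr012011 number 6. The authors' deposited table gives log2 fold changes of -5.53 for Pbr012011, with an adjusted p of 2.09e-08, and -6.20 for Pbr042268, with an adjusted p of 9.45e-10.

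These last 2 genes are nearly inseparable in the water library. Their levels there differed by 0.00167%, and they took ranks 2516 and 2517. Within 1% of Pbr042268 lay 51 other genes of that library, and Pbr012011 was the closest of them. In the yeast library Pbr012011 was 27.9% above Pbr042268, with both below 1 FPKM. Reads that fit several near-identical copies may be divided among them, and how this was done is not stated in the sources used here. The separate levels of these genes are to be read with care. No sequences were compared, so whether such sharing affects them was not tested. Whether this also affects the other PR10 genes, and so the proportions and shares given here, was not tested.

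The proportion between Pyr c 1 and this pair was far from constant. In the yeast library it was 2188 times as abundant as Pbr012011 and 2800 times as abundant as Pbr042268. In the water library Pyr c 1 was 6.58 times as abundant as either of them.

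**Figure D3:**
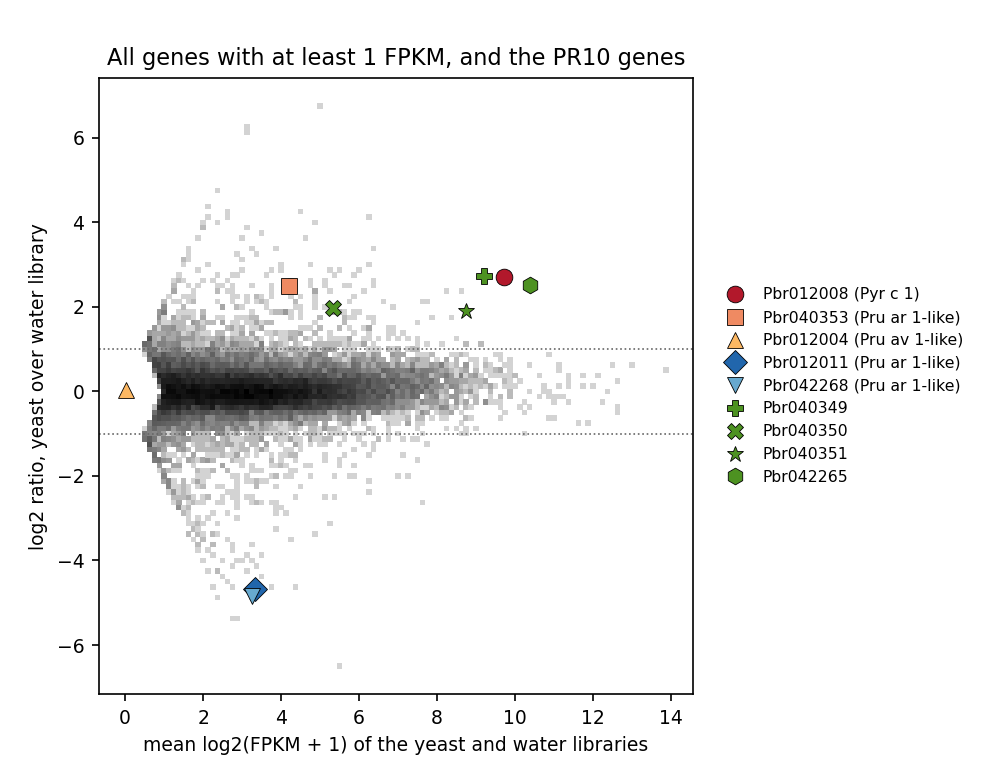
Log2 ratio of the yeast over the water library against the mean log2(FPKM + 1) of the libraries, for all genes of 1 FPKM or more in grey squares (binned, darker for more genes), with the 5 PR10 genes and 4 neighbours by identifier marked and dotted lines at a 2-fold difference. Pyr c 1 lies at a log2 ratio of 2.71 between Pbr040349 and Pbr042265, Pbr012011 and Pbr042268 lie near the lower edge at -4.68 and -4.85, and Pbr012004, below 1 FPKM in both libraries, lies at the far left.

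Pbr012004, the Pru av 1-like gene, was hardly measured. It had 0.0305 FPKM in the yeast library and was listed at 0 in the water library, so no fold is given. It did not reach the 1 FPKM minimum and took no part in the counts of the size rule. The authors' deposited table still lists it as higher with the yeast, with a log2 fold change of 4.29 and an adjusted p of 5.12e-06. Of the 39 genes that this table lists as higher and that were at 0 in the water library and above 0 in the yeast library, the other 38 all had more FPKM in the yeast library, with a median of 1.20 FPKM over the 39. Among all genes listed as higher, those at 0 included, 2 had even less FPKM in the yeast library than Pbr012004. Pbr013942 has exactly the same FPKM values in both libraries as Pbr012004 and is not in the authors' table. A log2 fold change cannot be formed from a level of 0, and how the authors' comparison reached 4.29 is not stated in the sources used here.

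Summed over these 5 genes only, FPKM was 5.05-fold higher in the yeast library, at 2206 FPKM against 437 FPKM in the water library. That was 0.295% of all FPKM in the yeast library and 0.0631% in the water library. Pyr c 1 alone made up 98.0% of the sum in the yeast library and 75.5% in the water library. Pbr040353 kept a similar share, 1.93% with the yeast and 1.55% with water. Pbr012011 and Pbr042268 together made up 0.0798% with the yeast and 22.9% with water. Without Pyr c 1, the sum of the other 4 genes was lower in the yeast library, at 44.4 FPKM against 107 FPKM in the water library. That is a log2 ratio of -1.27, taken without a pseudocount. The direction of this sum of 5 genes therefore rests on 1 gene. Any PR10 genes outside the authors' table have no description and are not in the sum. It therefore does not stand for the whole family.

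**Figure D4:**
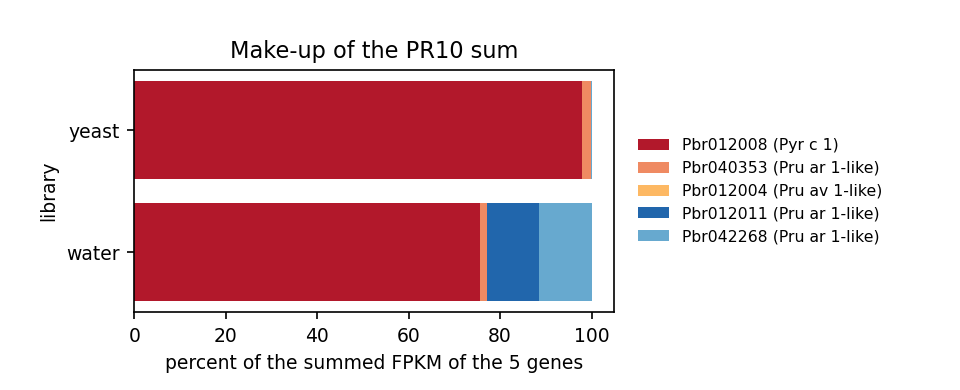
Share of each gene in the summed FPKM of the 5 PR10 genes, in percent, in the yeast library (top) and the water library (bottom). Pyr c 1 fills 98.0% of the yeast bar and 75.5% of the water bar, and Pbr012011 and Pbr042268 are visible only in the water bar.

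The identifiers Pbr012004, Pbr012008 and Pbr012011 are close in number, and the other two stand in separate places of the numbering. Genes numbered within 5 of a PR10 gene were therefore read as neighbours by identifier; whether they lie side by side in the genome was not examined here. The windows held 26 other genes, of which 22 reached 1 FPKM in one library or the other. By the size rule 5 of the 26 were higher with the yeast, 1 was lower and 20 differed by less. The 5 higher genes and the 1 lower gene were all among the 22. Of the 5 higher genes, 3 stood in the window of Pbr040353. Among the 22603 genes at 1 FPKM or more in either library, 3.32% were higher and 3.00% lower. Only Pbr040357, described as TIFY 10B-like, a JAZ repressor of jasmonate signalling, has a description in the authors' table. The others are given as identifiers, and whether any of them is a PR10 gene is not known here.

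Around Pbr040353, the genes Pbr040349, Pbr040350 and Pbr040351 were all higher with the yeast. Pbr040349 had 1528 FPKM in the yeast library and 229 FPKM in the water library, a 6.67-fold difference. Pbr040351 had 829 FPKM in the yeast library and 221 FPKM in the water library, a 3.75-fold difference. Pbr040350 had 79.3 FPKM in the yeast library and 19.3 FPKM in the water library, a 4.11-fold difference. Pbr040356, in the same window, had nearly the same level in both libraries, 210.3 FPKM with the yeast and 204 FPKM with water, so the higher levels did not extend over the whole window. Pbr040357 was the lower gene, listed at 0 with the yeast and at 1.98 FPKM with water.

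Close to Pbr042268 by identifier, Pbr042265 had 3189 FPKM in the yeast library and 560 FPKM in the water library, a 5.70-fold difference. This undescribed gene ranked 13 in the yeast library and 97 in the water library, above Pyr c 1 in both. The other 6 genes of that window had log2 ratios between -0.17 and 0.18. Around Pbr012008, Pbr012003 had 178 FPKM with the yeast and 64.2 FPKM with water, a 2.77-fold difference. Pbr012006 had 157 FPKM with the yeast and 78.3 FPKM with water, a log2 ratio of 0.99, just short of the size rule. Pbr012007 was listed at 0 in both libraries.

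**Figure D5:**
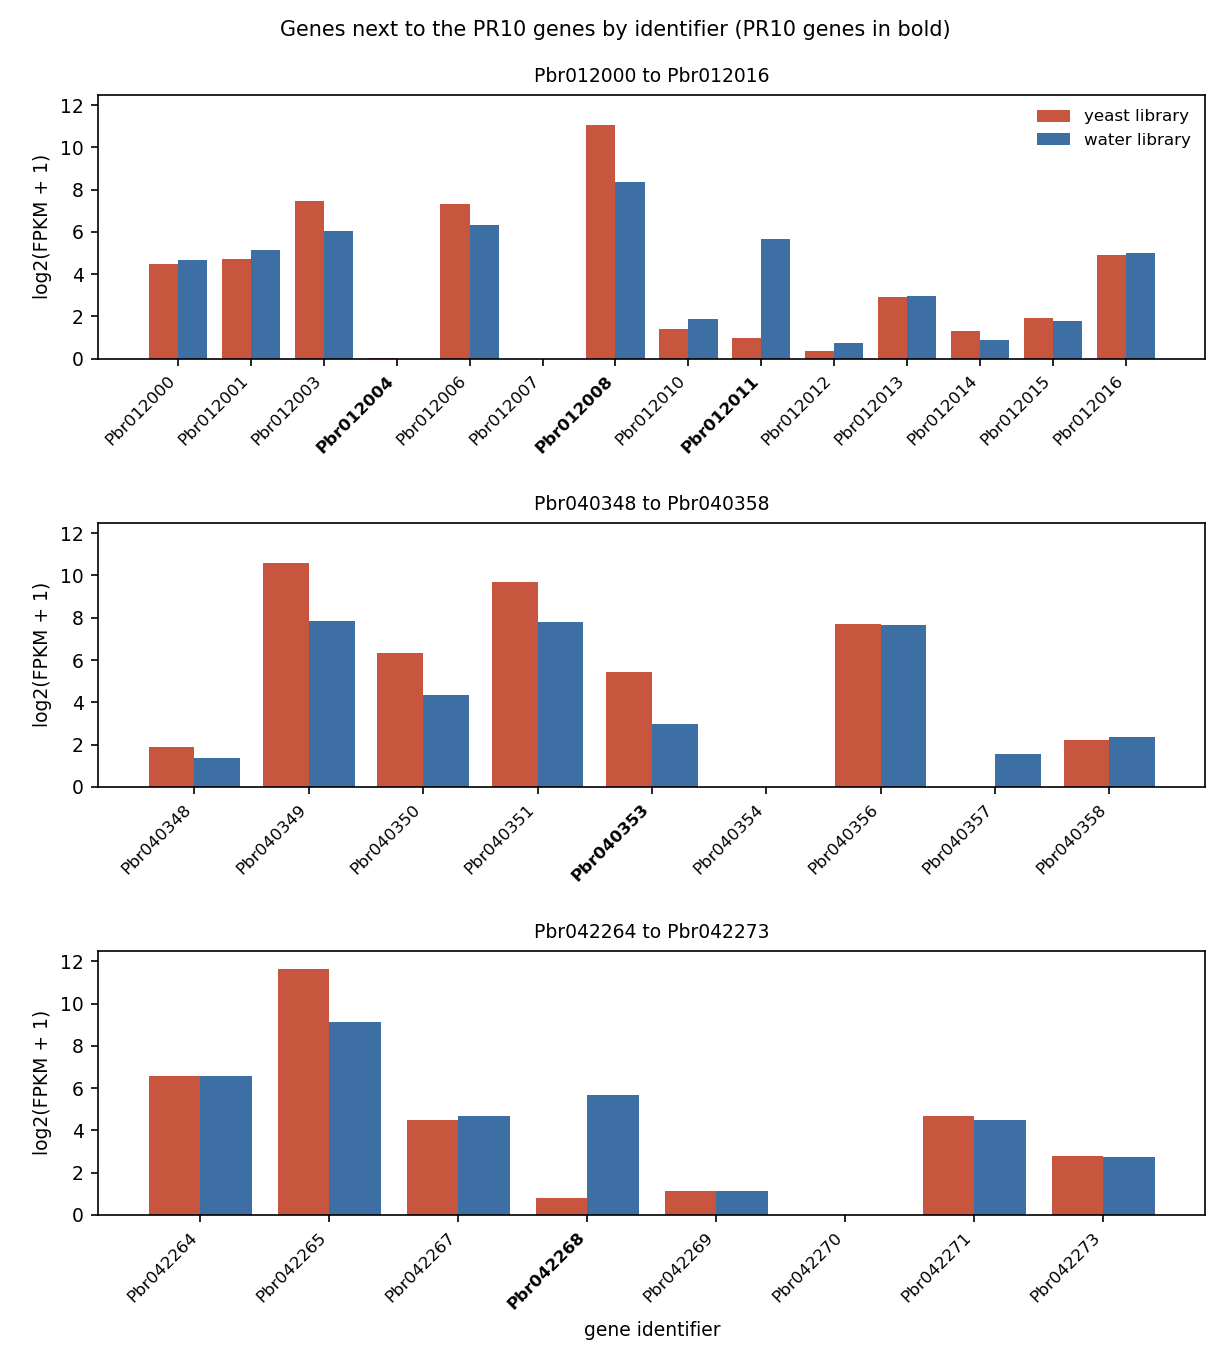
Levels on the log2(FPKM + 1) scale of the PR10 genes (bold) and the genes within 5 identifiers of them, in the yeast library (red, left bar) and the water library (blue, right bar), 1 panel per window. The tallest gene of each panel, Pbr012008, Pbr040349 or Pbr042265, was higher in the yeast library, and Pbr012011 and Pbr042268 have their taller bar in the water library.

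The genes most like each PR10 gene were found as those at the smallest distance in the pair of log2(FPKM + 1) values, over the 2 libraries only. For Pyr c 1 the nearest of all genes was Pbr040349, at a distance of 0.72 log2 units, and the next was Pbr042265, at 0.94. These are the neighbours by identifier of Pbr040353 and Pbr042268 described above. The following 3, Pbr000229, Pbr042517 and Pbr039046, lay at 1.32 to 1.38 and had log2 ratios of only 0.84, 1.13 and 0.79. None of these 5 genes is in the authors' table. Pbr040349 had a plain log2 ratio of 2.74 and Pbr042265 of 2.51, beside 2.71 for Pyr c 1, which that table does list.

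For Pbr012011 the nearest gene was Pbr042268, at a distance of 0.17, and the same held in reverse. Next after that came genes described as like synthases of a biphenyl or of 4-hydroxycoumarin. Biphenyl phytoalexins belong to a defence route of apple and pear relatives. Pbr027910, described as 3,5-dihydroxybiphenyl synthase-like, was next to Pbr012011, with 1.45 FPKM in the yeast library and 47.8 FPKM in the water library. Pbr027917, described as 4-hydroxycoumarin synthase 1-like, was next to Pbr042268, with 1.03 FPKM in the yeast library and 38.3 FPKM in the water library. For Pbr040353 the nearest were XLOC_016521, with 43.9 FPKM in the yeast library and 6.57 FPKM in the water library, and Pbr000563, with 45.3 FPKM in the yeast library and 6.41 FPKM in the water library, both described as uncharacterized proteins. For Pbr012004 they were Pbr013942 and Pbr013008, which is also listed at 0 with water, but at so low a level many genes are alike.

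Other pathogenesis-related and allergen families were searched by name in the authors' table, where genes that were not called have no description and could not be counted. Within the Bet v 1 superfamily, which also holds major latex proteins and abscisic acid receptors, the 5 PR10 genes were the only matches. Chitinases, PR1 proteins, beta-1,3-glucanases and the isoflavone reductase-like proteins, the family of pear allergen Pyr c 5, gave 0 matches. Class III peroxidases (PR9) had 1 gene listed as higher and 5 as lower, in a table that lists 143 genes as higher and 238 as lower. Cationic peroxidase 1-like Pbr015965 had 30.5 FPKM in the yeast library and 1.99 FPKM in the water library. Peroxidase A2-like Pbr000687 had 0.425 FPKM in the yeast library and 22.8 FPKM in the water library. The other lower ones, Pbr026502, Pbr026503, Pbr026504 and Pbr026505, are consecutive by identifier and all peroxidase N1-like, with at most 7.96 FPKM with water. XLOC_001006, which carries a lipid transfer and protease inhibitor domain as pear allergen Pyr c 3 does, had 14.1 FPKM in the yeast library and 1.98 FPKM in the water library.

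The remaining matches were low or not true members, and those named here were chosen after their values were seen. The profilin gene Pbr006065, of the family of pear allergen Pyr c 4, was listed at 0 with the yeast and at 0.318 FPKM with water. The thaumatin-like protein 1a gene Pbr032573 (PR5) was listed at 0 in both libraries, although the authors' deposited table lists it as lower. TGA2-like Pbr003518, of the transcription factors that act with the salicylate regulator NPR1 on PR genes, had 0.526 FPKM with the yeast and was listed at 0 with water. The antimicrobial peptide list matched 2 genes of S-adenosylmethionine metabolism, through letters shared with the word thionin, and so no peptide gene. A best hit in a fungus was found for 1 gene, Pbr024253, described as a probable transposable element, with 4.13 FPKM in the yeast library and 0.466 FPKM in the water library. Its hit in the Swiss-Prot protein database is a plant protein, DEAD-box ATP-dependent RNA helicase 26 of Arabidopsis thaliana, and its origin was not tested. The 5 PR10 genes have plant allergen best hits by choice, so none could have a fungal one.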

How the data were processed

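The authors deposited FPKM values for 45022 genes in both libraries. Their second deposited table holds 381 genes with a log2 ratio (yeast over water) and an adjusted p-value (FDR), per the file headers. The submitters' processing notes name Bowtie 0.12.2. The sources used here do not state the counter, build, annotation, comparison tool or scaling.

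Columns were assigned through the sample descriptions. With 1 library per group no test, SD or p-value was computed (Python 3.11.15, pandas 2.3.3). Ratios, ranks in descending FPKM, sums, shares and distances were computed from the FPKM values as deposited, with a pseudocount of 1 and a minimum of 1 FPKM in either library for counts. The 2-fold rule was also run on simulated reads as a check of the code only, and no result given here rests on it. None of the 5 identifiers is in the RefSeq gene table at hand, so neither coordinates nor sequences are printed.

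Named genes were the 5 members, genes within 5 identifiers, the 5 nearest genes to Pyr c 1 and 2 nearest to each other member, and the rank neighbours of Pyr c 1. Matches of the 13 name lists were also named, chosen after their values were seen and not strictly by abundance. The members, lists and rules were chosen with earlier results of these data known. Alternatives were a pseudocount of 0.1 or none, 3 other scalings, other minimum levels and ranks without XLOC loci.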

Additional observations from a re-analysis of the deposited data

How the results depend on the processing

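The log2 ratios of Pbr012008, Pbr040353, Pbr012011 and Pbr042268 kept their direction and stayed past 2-fold under the alternatives tried. These were a pseudocount of 0.1, no pseudocount and 3 other scalings. The scalings alone shift a log2 ratio by -0.11, -0.019 and -0.0059, too little to bring these genes under 2-fold, so they test nothing here. For Pbr012004 the pseudocount sets the log2 ratio, 0.043 with 1 FPKM and 0.38 with 0.1 FPKM. Without a pseudocount it could not be computed, so its small ratio does not show that the libraries were alike. Leaving Pyr c 1 out turned the log2 ratio of the summed FPKM, taken without a pseudocount, to -1.27. With all 5 genes it was 2.34, and Pyr c 1 is the most abundant member. Without a pseudocount the log2 ratios of the lower genes were -5.66 for Pbr012011 and -6.02 for Pbr042268. Counts of genes past 2-fold were 470 higher and 382 lower at a minimum of 5 FPKM, where fewer genes are counted, and 1347 higher and 1100 lower with a pseudocount of 0.1. Rescaling each library to an equal sum of FPKM moved the median log2 ratio to -0.11. That median was taken without a pseudocount, over genes at 1 FPKM or more in both libraries as deposited. Relative to that median the log2 ratio of Pyr c 1, which does carry the pseudocount, stood at 2.70. That rescaling also turned the balance of the counts, with 760 genes higher and 913 lower (45.4% higher). As deposited, 750 were higher and 678 lower (52.5% higher). The rescaled counts are over 23546 genes and the deposited ones over 22603. Rescaling raised all values while the minimum and the pseudocount stayed at 1, so more than the scaling differs. Ranks among Pbr identifiers alone were 20 with the yeast and 206 with water for Pyr c 1. With a pseudocount of 0.1 the 5 genes nearest to Pyr c 1 were the same, and Pbr027917 took the place of Pbr027910 beside Pbr012011. No paired analysis was possible because each group has 1 library, and none could be left out. Depth is unknown, which limits the values of Pbr012004 and of the lower genes in the yeast library.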
